A study of Caenorhabditis elegans with 6 samples.

Results

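The genes described here are 80 of the 20422 in the table, taken by name: every gene called spp, abf, cnc, ilys, fipr or thn followed by a number. They comprise 23 spp genes, 6 abf genes, 11 cnc genes, 5 ilys genes, 29 fipr genes and 6 thn genes. The names set the membership, though the members were proposed with earlier results of these data known. Of the 80, 79 are protein-coding in the Ensembl annotation and 1, thn-3, is a pseudogene. Their products are short: from the annotated coding length, the 79 proteins have 41 to 429 residues with a median of 100.

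A worm has no circulating immune cells, and its epithelia defend themselves by secreting small proteins that damage microbes. The spp genes encode saposin-like proteins, also called caenopores, some of which form pores in bacterial membranes. SPP-5 acts on ingested bacteria in the gut. The abf genes encode defensin-like antibacterial factors, the cnc genes encode caenacins (glycine-rich peptides of the epidermis, some induced by fungal infection), and the ilys genes encode invertebrate-type lysozymes, which cut bacterial cell walls. The thn genes encode proteins related to the plant defence protein thaumatin, and fipr stands for fungus-induced protein related. Insulin signalling bears on these genes through DAF-16, the FOXO transcription factor that the DAF-2 receptor keeps out of the nucleus, and spp-1 is among the genes known from earlier work to be raised by DAF-16.

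RNA was sequenced from sterile Caenorhabditis elegans adults of 2 genotypes, with 3 samples of 100 hand-picked worms in each. Strain SS1224, the double mutant, combines daf-2(e1370) on chromosome III with mes-1(bn84ts) on X and is written daf-2; mes-1 in the plots. Its e1370 allele weakens the insulin/IGF-1 receptor in all cells of the worm. Strain SS0415, the control, is mes-1(bn84ts) X alone. Both strains carry the temperature-sensitive mes-1 allele, which leaves many worms without a germline, and sterility was judged by the absence of visible embryos. Embryos of both came from mothers kept at 24°C, developed at 15°C from day 1, returned to 24°C as adults on day 5 and were collected on day 6. Whether the samples of a genotype are separate cultures is not stated, and p-values therefore reflect a spread between samples that may be technical.

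The table gives 5 values for each gene and none for a single sample, so the calls below are the authors' own DESeq2 calls at an adjusted p under 0.05. Library depths are known only relative to each other: size factors recovered from the table were 1.38, 1.07 and 0.584 for the double-mutant libraries and 1.79, 0.859 and 0.826 for the mes-1 libraries, deepest first. For genes with a mean normalized count under 10, the whole reads of each library could be worked out in the same way, and libraries are named below by depth within their genotype. In each genotype the deepest library held the most germline RNA, and the deepest mes-1 library held the most of all. The 5 germline markers with recovered reads (him-3, htp-3, pgl-3, rec-8 and spo-11) summed to 26.7, 7.48 and 1.71 normalized reads in the double-mutant libraries, deepest first, and to 64.4, 9.32 and 3.63 in the mes-1 libraries. Across 14 germline markers, RPKM (reads per kilobase of transcript, scaled to library depth) in the authors' deposited table summed to 18.9 in double mutants and 64 in mes-1 worms. What part these differences in germline RNA have in the results below was not tested. The daf-2 gene itself had a log2 fold change of 0.35 ± 0.26 (implied SE, adjusted p = 0.615, DESeq2) by the authors' deposited table. As e1370 is a missense allele, this RNA level does not check the labels. Of 9 intestine markers, 7 were called lower in the authors' deposited table and none higher. Over all genes with an adjusted p, 6.35% were called lower. The summed RPKM of the 9 by the authors' deposited table was 1730 in double mutants and 5787 in mes-1 worms. Most of this came from mtl-2 (719 in double mutants and 2795 in mes-1 worms) and asp-1 (508 and 1956).

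The 80 effector genes covered the whole range of expression. Of these genes, 17 had no read in any library. In the authors' deposited table, 36 genes, those 17 included, stayed under an RPKM of 10 in both genotypes, 25 reached 10 to 100 and 19 reached at least 100. The saposin-like genes held the top of this range: 12 of the 19 highest were spp genes, led by spp-14, spp-5 and spp-17. By RPKM in double mutants, spp-14 was number 10 of all genes and spp-5 number 20, and in mes-1 worms they were numbers 15 and 13. The 23 spp genes summed to an RPKM of 16498 in double mutants and 14833 in mes-1 worms in the authors' deposited table. At the other end, 10 of the 29 fipr genes had no read. RPKM favours the shortest transcripts in this table: RPKM times spliced length, per unit of mean count, had a median of 0.753 for genes of 300 to 400 bases and 0.416 for genes of 1500 to 2500 bases, a ratio of 1.81.

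**Figure D1:**
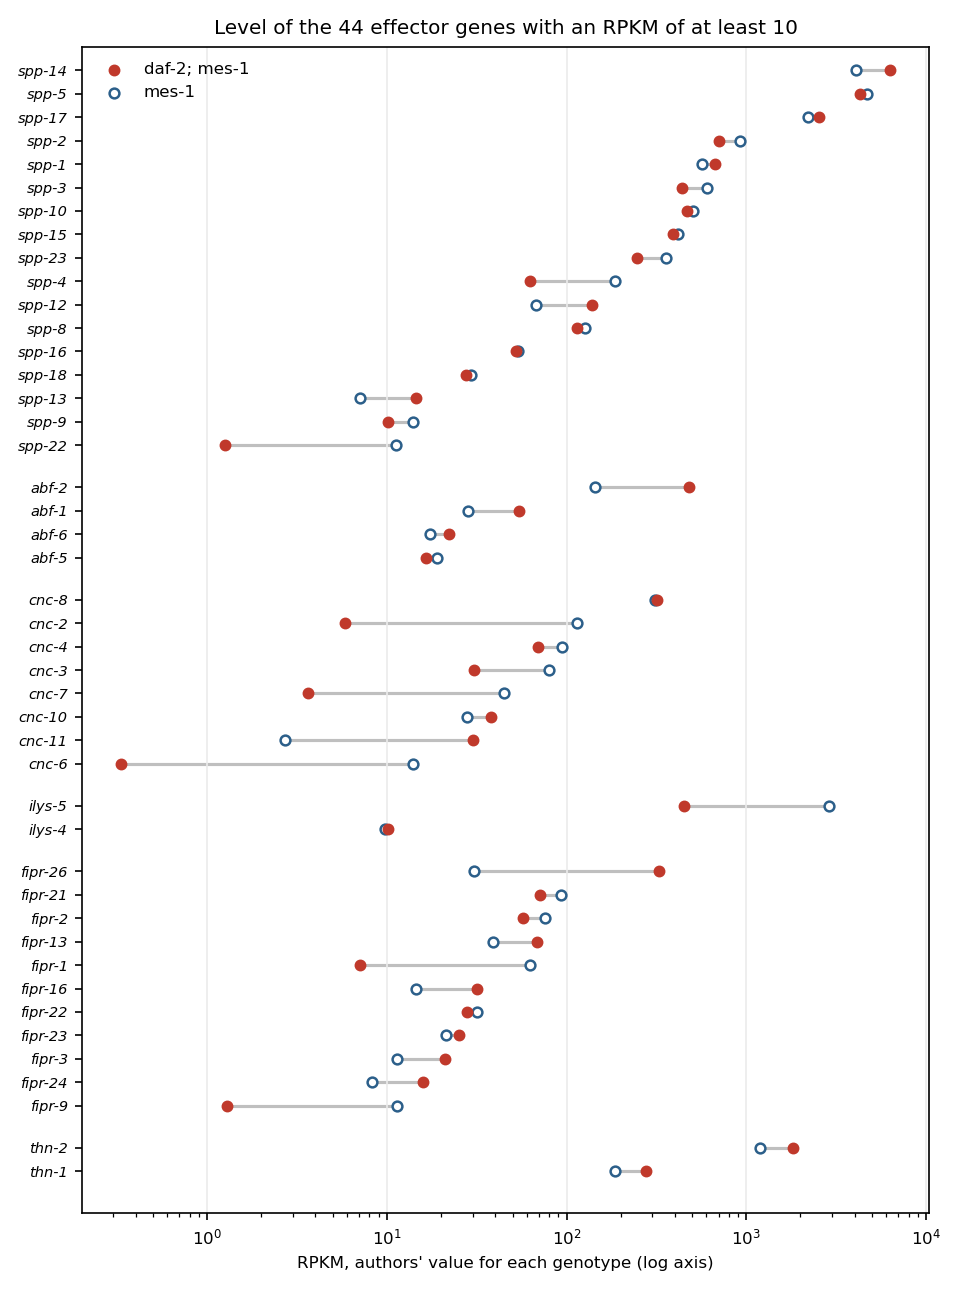
RPKM of each genotype on a log axis for the 44 effector genes that reach 10 in at least 1 genotype, by family and level, with filled points for daf-2; mes-1 and open points for mes-1 (the authors' values, no SD). The spp genes span from 6324 for spp-14 in daf-2; mes-1 down to 1.25 for spp-22, and the widest gap is that of cnc-6, at 0.33 in daf-2; mes-1 and 13.9 in mes-1.

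Of the 38 members with an adjusted p from the authors' deposited table, 3 were called higher in double mutants (fipr-26, abf-2 and spp-14), 5 were called lower (cnc-2, ilys-5, fipr-1, spp-4 and cnc-3) and 30 were not called. Across all 9820 genes with an adjusted p from the authors' deposited table, 10.3% were called, 3.92% higher and 6.35% lower. The median log2 fold change of the 38 was -0.01, against -0.03 over all 9820 genes of the authors' deposited table. No member had an adjusted p between 0.05 and 0.1, and the lowest among the 30 was 0.206, for thn-2. A standard error of each fold change, implied by its adjusted p and taken as an upper limit, had a median of 0.37 over these members. No called member has exons that overlap those of a gene on the opposite strand.

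**Figure D2:**
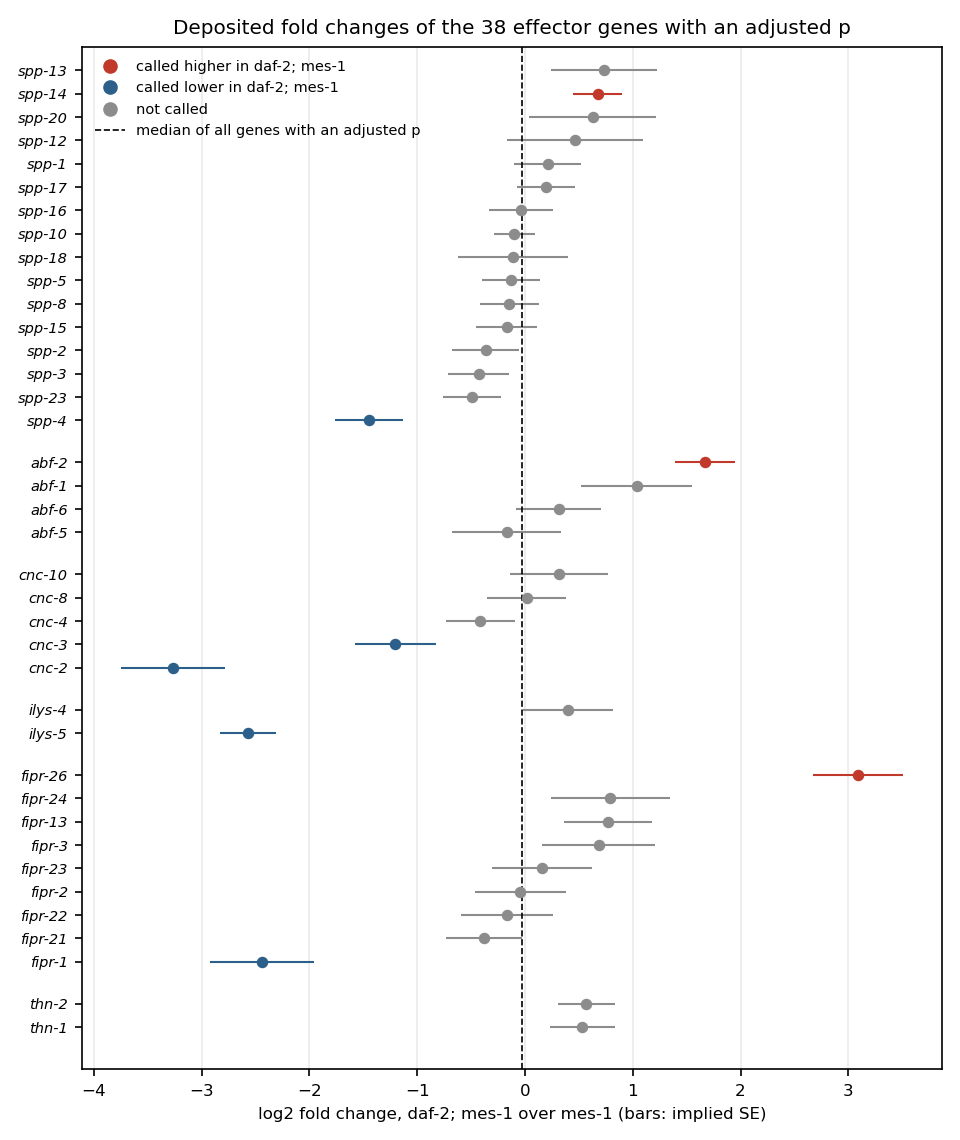
Log2 fold changes, as deposited, of daf-2; mes-1 relative to mes-1 for the 38 effector genes with an adjusted p, by family, with bars for the implied SE and a dashed line at the median of all genes, -0.03. The 3 called higher lie at 0.68 to 3.09 and the 5 called lower at -3.27 to -1.20, while most others lie within 1 unit of 0.

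The lysozyme gene ilys-5 was the most abundant effector to fall. The authors' deposited table gave it an RPKM of 451 in double mutants and 2885 in mes-1 worms, where it was number 33 of all genes. Its log2 fold change in the authors' deposited table was -2.57 ± 0.26 (implied SE), or 5.95-fold lower, with an adjusted p of 1.01e-20 (DESeq2). The gene (WBGene00017691) lies on chromosome X from 6533447 to 6536803 in the table, whose genome build the sources used here leave unstated. It carried nearly all lysozyme RNA of this type: the 5 ilys genes summed to an RPKM of 468 in double mutants and 2896 in mes-1 worms, and without ilys-5 to 17.5 in double mutants and 11 in mes-1 worms. In RNA from whole worms, fewer cells that express a gene and less RNA per cell cannot be told apart. The 7 called intestine markers fell as well, and their part in the fall of ilys-5 and of the other members called lower was not tested. Within that list the intestinal GATA factor gene elt-2 had a log2 fold change of 0.06 and the gut esterase gene ges-1 one of 0.37 in the authors' deposited table, neither of them called.

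The other lysozymes of this type were scarce. For ilys-4 the authors' deposited table gave an RPKM of 10.1 in double mutants and 9.76 in mes-1 worms and a log2 fold change of 0.40 ± 0.42 (implied SE), which was not called. The best-studied member, ilys-3, needed in the pharynx and gut for killing of ingested bacteria, had 14 reads in double mutants and 1 in mes-1 worms. Deepest library first, these were 5.06, 2.81 and 6.85 normalized reads in double mutants, against 0, 1.16 and 0 in mes-1 worms. All 3 double-mutant libraries were above all 3 mes-1 libraries. The ratio of double mutants to mes-1 worms was 16, with a 95% exact interval of 2.43 to 677 that covers counting error only. ilys-2 had 4 reads in double mutants and 2 in mes-1 worms, and ilys-1 had none in either.

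Of the 5 caenacins with an adjusted p, 2 were called lower and none higher, against 6.35% lower and 3.92% higher over all genes. cnc-2, an epidermal peptide gene known to be induced by fungal infection through the TGF-beta ligand DBL-1, had the lowest fold change of all members with an adjusted p. Its RPKM was 5.85 in double mutants and 114 in mes-1 worms, and its log2 fold change -3.27 ± 0.48 (implied SE, adjusted p = 7.91e-10, DESeq2), per the authors' deposited table. cnc-3 also fell, with an RPKM of 30.6 in double mutants and 79.8 in mes-1 worms and a log2 fold change of -1.20 ± 0.38 (implied SE, adjusted p = 0.0177, DESeq2) by the authors' deposited table. The most abundant caenacin, cnc-8, was not called. For it the authors' deposited table gave an RPKM of 318 in double mutants and 310 in mes-1 worms. The 95% interval of its log2 fold change, from the implied SE, was -0.70 to 0.73. cnc-4 had a log2 fold change of -0.42 ± 0.32 and cnc-10 one of 0.32 ± 0.45 (implied SE), both not called in the authors' deposited table.

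Of the caenacins too low for an adjusted p, cnc-6 and cnc-7 had few reads in double mutants. cnc-6 had 1.45, 0 and 0 normalized reads in the double-mutant libraries, deepest first, against 6.72, 14 and 9.69 in the mes-1 libraries. For cnc-7 the libraries held 0.723, 0 and 1.71 normalized reads in double mutants and 6.16, 10.5 and 13.3 in mes-1 worms. The genotypes did not overlap for either gene. The ratio of double mutants to mes-1 worms was 0.0714 for cnc-6 (2 against 32 reads; 95% exact interval 0.00829 to 0.28) and 0.0737 for cnc-7 (2 against 31 reads; 0.00855 to 0.29), with intervals for counting error only. cnc-11 went the other way, with 4.34, 1.87 and 6.85 normalized reads in double mutants, against 0, 1.16 and 0 in mes-1 worms. Its ratio of 13.7 rested on 12 reads against 1 (95% exact interval 2.03 to 586). cnc-1 had 3 reads in double mutants and 1 in mes-1 worms, and cnc-5 and cnc-9 had none. The summed RPKM of the family in the authors' deposited table was 499.7 in double mutants and 689 in mes-1 worms, and without cnc-8 it was 182 in double mutants and 378 in mes-1 worms.

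The fipr family, short proteins of 41 to 191 residues here, held both a strong rise and a strong fall. fipr-26 (WBGene00009963), which encodes 57 residues and lies on chromosome I from 8946701 to 8947190, had the highest deposited log2 fold change of the members with an adjusted p. Its RPKM by the authors' deposited table was 328 in double mutants and 30.7 in mes-1 worms, and its log2 fold change 3.09 ± 0.42 (implied SE, adjusted p = 9.61e-12, DESeq2), or 8.53-fold higher. fipr-1, on chromosome V from 12361282 to 12361725, fell, with an RPKM of 7.13 in double mutants and 62.7 in mes-1 worms and a log2 fold change of -2.44 ± 0.48 (implied SE, adjusted p = 1.64e-05, DESeq2) by the authors' deposited table. The other 7 with an adjusted p were not called, and their log2 fold changes ran from -0.38 for fipr-21 to 0.79 for fipr-24 in the authors' deposited table. The table gives fipr-24 a span on chromosome I from 14157616 to 14231078, far longer than its 423 spliced bases. Without fipr-26, the summed RPKM of the family in the authors' deposited table was 346 in double mutants and 389 in mes-1 worms; with it, 675 in double mutants and 419.9 in mes-1 worms.

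Among fipr genes with reads of each library, fipr-3 and fipr-24 had more reads in double mutants but overlapped. fipr-24 had 7.23, 11.2 and 17.1 normalized reads in the double-mutant libraries, deepest first, against 2.80, 5.82 and 8.47 in the mes-1 libraries. fipr-3 had 10.1, 13.1 and 17.1 in double mutants, against 7.28, 10.5 and 3.63 in mes-1 worms. Its exons overlap F23D12.11 on the opposite strand, and the library kit does not mark strand. fipr-9 was lower without overlap, with 0.723, 0 and 0 in double mutants, against 2.24, 2.33 and 2.42 in mes-1 worms, but this rests on 1 read against 8. Its neighbour fipr-5 had 0 reads in double mutants and 5 in mes-1 worms, and a count of 0 allows up to 3 reads. High RPKM values of the shortest members can rest on very few reads: fipr-16, of 150 spliced bases, is listed at an RPKM of 31.9 in double mutants and 14.5 in mes-1 worms in the authors' deposited table, from 4 reads and 1 read.

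The defensin-like gene abf-2, expressed in the pharynx in earlier work, rose. It lies on chromosome I from 3885551 to 3885964 and encodes 85 residues. Its RPKM by the authors' deposited table was 480.2 in double mutants and 143 in mes-1 worms. The log2 fold change was 1.67 ± 0.28 (implied SE, adjusted p = 7.33e-08, DESeq2), or 3.18-fold higher, in the authors' deposited table. The adjacent gene abf-1 had an RPKM of 54.5 in double mutants and 28.2 in mes-1 worms, and its log2 fold change of 1.04 ± 0.52 (implied SE) had an adjusted p of 0.261 (DESeq2) by the authors' deposited table. abf-6 and abf-5, a pair on chromosome X, had log2 fold changes of 0.31 and -0.17 by the authors' deposited table, not called. Reads of abf-5 spread widely within each genotype: 6.5, 13.1 and 20.5 normalized reads in double mutants and 7.84, 22.1 and 15.7 in mes-1 worms, deepest library first. abf-3 and abf-4 had no read. Of 8 pharynx markers, 4 had an adjusted p and none was called. At an unadjusted p under 0.05 there was 1, phat-3, with a log2 fold change of -0.91 in the authors' deposited table. Of the 4, 2 had positive fold changes, myo-2 (0.57) among them, and 2 negative. The summed RPKM of the 8 markers by the authors' deposited table was 58.1 in double mutants and 61.6 in mes-1 worms, and phat-1 had no read.

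Of the 16 saposin-like genes with an adjusted p, 1 was called higher, 1 lower and 14 were not called. The share called, 12.5%, was near the 10.3% over all genes. spp-14 (WBGene00004999, chromosome X from 7725904 to 7726337) was the one called higher, with an RPKM of 6324 in double mutants and 4079 in mes-1 worms in the authors' deposited table. Its log2 fold change was 0.68 ± 0.23 (implied SE, adjusted p = 0.0343, DESeq2), or 1.60-fold, per the authors' deposited table. spp-4, on chromosome X from 7318229 to 7318730, fell 2.73-fold, with an RPKM of 62.7 in double mutants and 185 in mes-1 worms and a log2 fold change of -1.45 ± 0.31 (implied SE, adjusted p = 1.11e-04, DESeq2) by the authors' deposited table. spp-5, whose product permeabilizes bacteria in the gut, had an RPKM of 4270.0 in double mutants and 4670.3 in mes-1 worms in the authors' deposited table. The 95% interval of its log2 fold change, from the implied SE, was -0.67 to 0.40. For spp-17, next in level, the authors' deposited table gave 0.20 ± 0.27 (implied SE).

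The DAF-16 target spp-1 was not called. Its RPKM by the authors' deposited table was 671 in double mutants and 568 in mes-1 worms, and its log2 fold change 0.21 ± 0.31 (implied SE, adjusted p = 0.892, DESeq2). An interval of -0.40 to 0.82 on the log2 scale, from the implied SE, bounds the change. Exons of spp-1 overlap T07C4.3 on the opposite strand. spp-12, a caenopore gene of pharyngeal neurons, had an RPKM of 139 in double mutants and 67.7 in mes-1 worms in the authors' deposited table, but a log2 fold change of 0.46 with an implied SE of 0.63 (adjusted p = 0.871, DESeq2). That SE exceeded 98.8% of those of genes nearest in mean, whose median was 0.32. Of 6 neuron markers, 1 (snb-1) was called higher and none lower, against 3.92% higher and 6.35% lower over all genes. spp-3 had a log2 fold change of -0.43 ± 0.28 and spp-2 one of -0.36 ± 0.31 (implied SE) in the authors' deposited table, not called. The log2 fold changes of the 14 spp genes with an adjusted p that were not called ran from -0.49 for spp-23 to 0.73 for spp-13 in the authors' deposited table.

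A pair of scarce saposin-like genes differed between libraries of 1 genotype more than between genotypes. spp-20 had 10.8, 29.0 and 8.56 normalized reads in the double-mutant libraries, deepest first, against 11.2, 0 and 0 in the mes-1 libraries. All of its 20 mes-1 reads were in the deepest mes-1 library. Its highest value in double mutants was in the middle library. The deepest library of each genotype had the most germline RNA. Among 1452 genes with a mean of 5 to 10 and at least 10 mes-1 reads, 3 had all of them in that library: spp-20, klp-18 and mom-2. klp-18 had 58 reads there and mom-2 had 45. spp-9 had 0, 14 and 0 normalized reads in double mutants, against 6.72, 6.99 and 4.84 in mes-1 worms. Among 1382 genes of the same range with at least 10 double-mutant reads, it was the only one with all of its double-mutant reads in the middle library. What part germline RNA, or any other difference between these libraries, has in the reads of spp-20 and spp-9 was not tested.

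**Figure D3:**
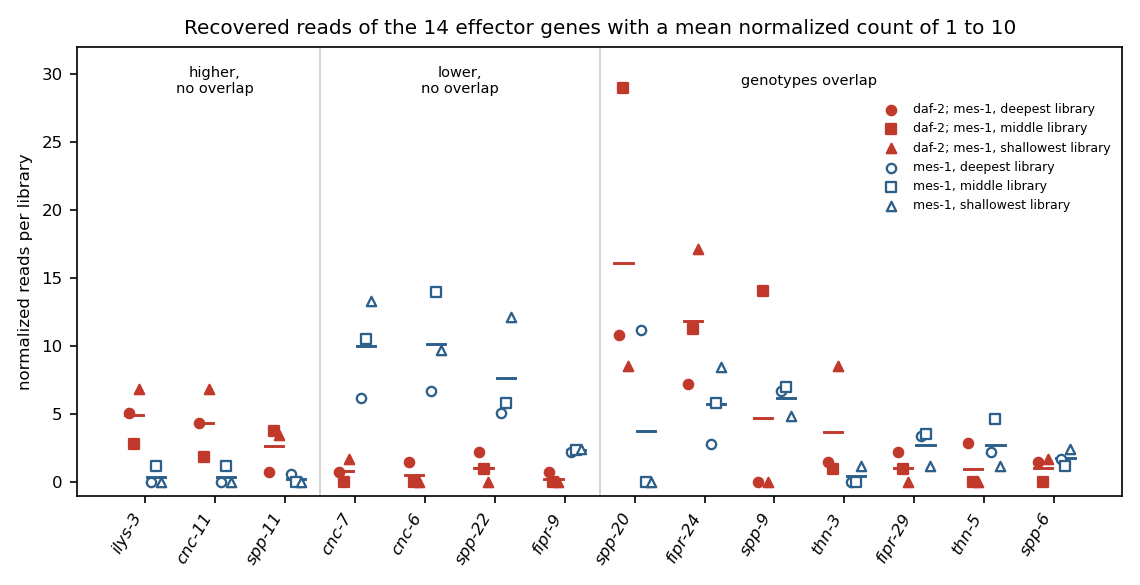
Normalized reads in each library for the 14 effector genes with a mean normalized count of 1 to 10, filled points for daf-2; mes-1 and open points for mes-1, with symbols for depth within the genotype and bars for the means. The genotypes do not overlap for the 3 genes on the left and the 4 in the middle, while spp-20 and spp-9 each have a genotype with all its reads in 1 library.

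Of the 14 members with a mean of 1 to 10, 3 were higher in all double-mutant libraries than in any mes-1 library (ilys-3, cnc-11 and spp-11) and 4 were lower in all of them (cnc-6, cnc-7, spp-22 and fipr-9). Over all 4430 genes of that range, 9.19% were higher and 8.71% lower without overlap. With 3 libraries against 3, an exact permutation test of 1 gene cannot go below p = 0.1, and no count model was fitted to the recovered reads. spp-22 had 2.17, 0.936 and 0 normalized reads in double mutants, against 5.04, 5.82 and 12.1 in mes-1 worms, and a ratio of 0.19 (4 against 24 reads; 95% exact interval 0.048 to 0.554). spp-11 rested on 7 reads in double mutants and 1 in mes-1 worms. Summed over the 27 members with a mean under 10, the libraries held 46.2, 76.7 and 56.5 normalized reads in double mutants and 57.7, 65.2 and 61.7 in mes-1 worms, and the genotypes overlapped.

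Neither thaumatin-like gene with an adjusted p was called. thn-2 had an RPKM of 1812 in double mutants and 1194 in mes-1 worms by the authors' deposited table, which made it number 62 of all genes in double mutants and number 115 in mes-1 worms. Its log2 fold change was 0.57 ± 0.27 (implied SE, adjusted p = 0.206, DESeq2) and that of thn-1 0.53 ± 0.30 (implied SE, adjusted p = 0.381, DESeq2) by the authors' deposited table. The interval of thn-2, 0.05 to 1.09, lies above 0 before adjustment over all genes. Between these genes lies thn-3, with 1.45, 0.936 and 8.56 normalized reads in double mutants and 0, 0 and 1.21 in mes-1 worms. The genotypes overlapped, and most of its double-mutant reads were in the shallowest library. thn-5 had 4 reads in double mutants and 9 in mes-1 worms, thn-6 had 0 and 2, and thn-4 had none.

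Members often lie next to each other in the genome: 53 of the 80 start within 20 kb of the next member, in 19 groups. In several groups a called gene lies beside one that was not called. On chromosome V, 6 caenacin genes lie in a row between 1442588 and 1450189 with no other gene of the table between them. cnc-2 at one end had a 95% interval of -4.21 to -2.32 on the log2 scale, cnc-3 beside it one of -1.94 to -0.46 and cnc-4 one of -1.04 to 0.21, from implied SEs. The interval of cnc-2 overlapped neither that of cnc-3 nor that of cnc-4, and the differences between genes were not tested. These intervals are centred on the deposited fold changes. On the log2 scale the RPKM ratio of cnc-2 was -4.26 with a pseudocount of 0.1, outside its interval. With a pseudocount of 1 it was -4.07, inside the interval. On chromosome X, spp-3, spp-2, spp-6, spp-4 and spp-5 lie between 7314837 and 7320338. The spp-4 interval, -2.07 to -0.83, lay apart from that of spp-5, -0.67 to 0.40, and overlapped those of spp-2 and spp-3. fipr-1 and fipr-2, about 4.12 kb apart on chromosome V, had log2 fold changes of -2.44 and -0.05 by the authors' deposited table. Near-identical copies can share reads, and the values of close neighbours in 1 family are uncertain to that extent.

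**Figure D4:**
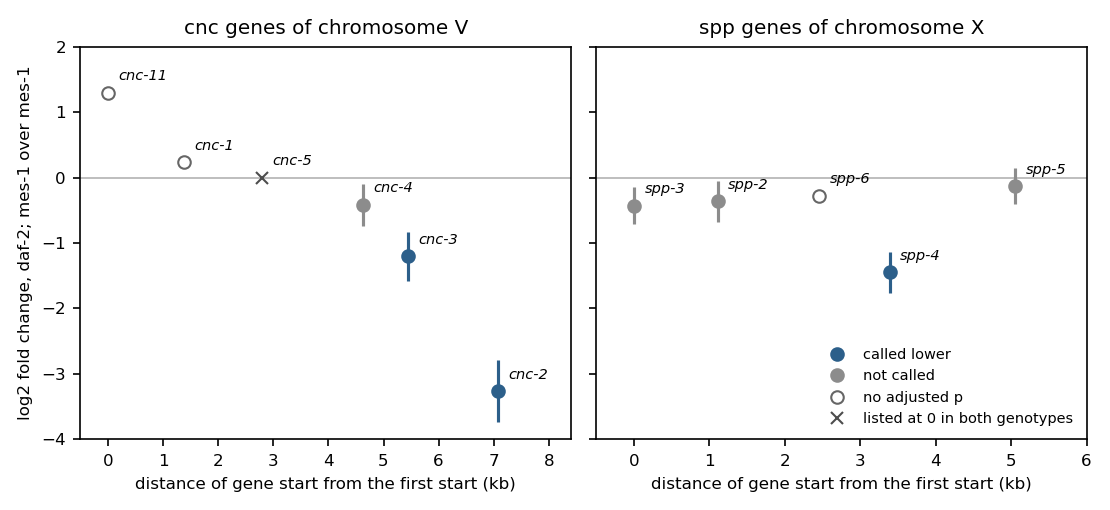
Log2 fold change, as deposited, of daf-2; mes-1 relative to mes-1 against the distance of each gene start from the first start, in kb, for the cnc genes of chromosome V and the spp genes of chromosome X; bars are implied SEs. In the cnc row the values run from 1.3 for cnc-11, which has no adjusted p, to -3.27 for cnc-2. The deposited value of cnc-11 is a 2.47-fold rise, against a ratio of 13.7 from its recovered reads. In the spp row spp-4 at -1.45 lies below its 4 neighbours.

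Known regulators of these effectors were called at a share near that of all genes, 6.67% in each of 2 lists against 10.3%. Of 15 genes of the p38 kinase pathway and intestinal immune regulation, 1 was called higher and none lower in the authors' deposited table, where the median log2 fold change was 0.06. The call was sek-1, the kinase that activates the p38 kinase PMK-1, with 0.94 ± 0.22 on the log2 scale (implied SE, adjusted p = 3.55e-04, DESeq2) by the authors' deposited table. Among 16 regulators of epidermal antimicrobial peptides, 15 had an adjusted p, 1 was called lower and none higher, with a median of -0.03. This was sma-4, a SMAD gene that acts after DBL-1, with -0.80 ± 0.27 on the log2 scale (implied SE, adjusted p = 0.0317, DESeq2) by the authors' deposited table. dbl-1 itself had 0.04 ± 0.48 (implied SE) in the authors' deposited table. Of 11 epidermis markers, 7 had an adjusted p and none was called; none had an unadjusted p under 0.05. Their summed RPKM by the authors' deposited table was 1326 in double mutants and 989 in mes-1 worms, nearly all of it from col-19.

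Other effector genes were called in both directions. Of 38 further lysozyme, nlp, fip, irg and C-type lectin genes, 26 had an adjusted p, and 2 were called higher and 7 lower by the authors' deposited table, at a median log2 fold change of -0.42. The 9 called are 34.6% of the 26, against 10.3% of all genes with an adjusted p. Calls in both directions were found for nlp and fip genes, while the lys, irg and clec genes called were all lower. The rises were nlp-24 (1.42) and fip-6 (1.39), and the largest falls nlp-34 (-2.14), irg-5 (-2.09; F35E12.5 in the table), irg-4 (-1.94; F08G5.6) and clec-67 (-1.88), all log2 fold changes of the authors' deposited table. The DAF-16 target lys-7 had an RPKM of 2448 in double mutants and 2468 in mes-1 worms in the authors' deposited table and was not called. Within the fip (fungus-induced protein) genes, fip-6 rose while fip-5 fell by 1.49 (log2) by the authors' deposited table.

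**Figure D5:**
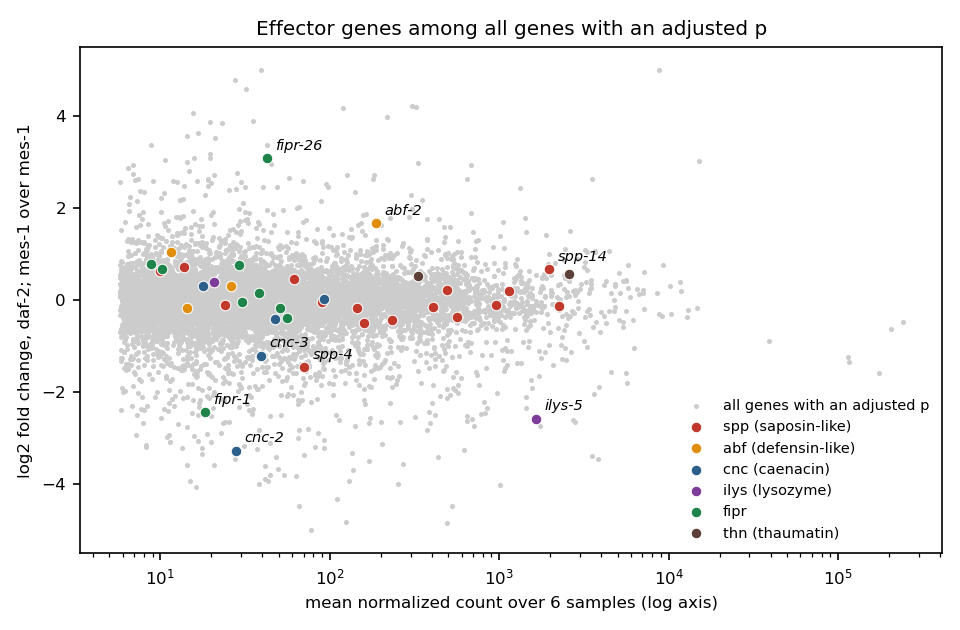
Log2 fold change, as deposited, of daf-2; mes-1 relative to mes-1 against the mean normalized count over 6 samples (log axis), with grey points for all 9820 genes with an adjusted p and coloured points for the 38 effector genes among them. The 8 called members are named; ilys-5 at -2.57 is the only one called lower with a mean above 100.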

How the data were processed

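RNA of 6 samples, 3 daf-2; mes-1 and 3 mes-1, was measured by sequencing after ribosomal RNA depletion, per the labels' protocols. The submitters' processing notes name TopHat2 and DESeq2 with no version, and Cuffdiff2 stands in the file headers. Neither genome build nor annotation is given in the sources used here. The deposited signal is the average of normalized counts in the 6 samples, from the authors' DESeq2 run per the file headers. The deposited log2 fold change and the deposited adjusted p-value (Benjamini-Hochberg) come from DESeq2, and the authors' RPKM for each genotype from Cuffdiff2, per the file headers. Fold changes end at 5 and p-values at 1e-20.

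The planned count test could not be run because the table holds no value for a single sample, so calls are the authors' own. An upper bound on each unadjusted p-value came from undoing the Benjamini-Hochberg adjustment, and an implied SE is the absolute log2 fold change over the matching normal quantile. The step that 1 read adds to a mean, 1 for each library, was read off genes with 1 read and fitted over 2872 low genes. Every set of 6 whole numbers that gives a mean within its rounding was then listed; 8227 of 8228 genes with a mean under 10 had 1 set, and none had no set. Of 1520 genes of mean 1 to 10 that differed at least 2-fold, all 1520 had the sign of the deposited fold change. Both steps were tested on simulated data. This recovery was added after the data were seen. Ratios of reads carry exact binomial intervals scaled by summed size factors. Exon overlaps and coding lengths come from the Ensembl annotation of WBcel235 within its own coordinates, matched by gene ID for 80 of 80 members. Named genes were the called members, those with an adjusted p of 0.05 to 0.1, the 3 highest of each family by RPKM and 10 genes studied in earlier work; any other gene with values in the text was picked with its values in view. The members and lists were chosen with earlier results of these data known. Python 3.11.15, pandas 2.3.3, numpy 2.4.6, scipy 1.17.1 and matplotlib 3.10.9 were used.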

Additional observations from a re-analysis of the deposited data

How the results depend on the processing

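No paired analysis was possible because the table holds no value for a single sample and the recovered libraries carry no replicate number. Leaving out replicates, another count tool and other scalings could not be run for the 8 called members, which have no unique recovered reads, and were not run on the recovered reads of low genes. The 8 called members became 3 when only genes with a mean normalized count of at least 100 were kept, with 1 lower in place of 5. The other called members have means under 100, and no test was rerun. At an unadjusted p under 0.05, 5 were higher in place of 3. Without the cnc family 3 were lower in place of 5, which follows by count alone, as that family holds 2 of the 5 calls. The ratio of summed RPKM of double mutants to mes-1 worms moved more than 1.5 times in 4 families when 1 gene was left out. It was 2.76 for abf and 1.44 without abf-2, and 0.726 for cnc and 0.48 without cnc-8. For ilys it was 0.162 and 1.59 without ilys-5, and for fipr 1.61 and 0.89 without fipr-26. Of these 4 families, the ratio crossed 1 for ilys and fipr only, and for cnc it moved further below 1. It stayed within 1.5 times for spp (1.11 and, without spp-14, 0.946) and thn. RPKM ratios in place of deposited fold changes kept the sign in all 66 values of 22 named genes. They moved beyond the implied SE in 4, with pseudocounts of 0.1 and 1. These were cnc-2 (-4.26 and -4.07, against -3.27) and fipr-1 (-3.12 and -2.97, against -2.44). Deposited folds were also smaller than ratios of recovered reads for ilys-3 (2.74 against 16) and cnc-11 (2.47 against 13.7). The same held for cnc-6, at 4.28-fold lower as deposited and 14-fold lower by recovered reads. With 0 reads in double mutants and 5 in mes-1 worms, fipr-5 still had a finite deposited log2 fold change of -0.73. The deposited folds of these low genes are therefore not plain ratios of normalized reads. The cause of these gaps was not tested. Size factors span 3.06 times, so depth limits the low genes most in the shallowest library.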
